A study of Apis mellifera with 96 samples.

Results

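Nurse honey bees (Apis mellifera workers that feed the brood) caught on day 26 were compared with nurses caught on day 7. The comparison holds 46 nurse libraries of the 96 labelled samples, 24 from day 26 and 22 from day 7, chosen by role and day in their titles. Per the labels, workers of 6 origin colonies (107, 109, 115, 122, 127 and 137) were spread as 1-day-old adults into 3 nuclear hives, each stocked with a queen and frames of honey. Both groups were wild type and untreated, and total RNA of whole bees was read as 3' tags with an in-house TagSeq protocol. Each colony gave 4 nurse libraries per day, except colony 127, which has 2 at day 7. Nothing in the labels tells if 1 bee or a pool went into a library, or if replicates are separate bees, so the p-values reflect spread among libraries that may in part be technical. Nurse libraries held 763239 to 2300891 counts on genes, with a median of 1345352.

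A worker bee usually nurses when young and forages when older, and a nurse of an advanced age is called an over-age nurse. Nursing rests on the hypopharyngeal glands of the head, which secrete major royal jelly proteins such as that of Mrjp1 into brood food. It also rests on vitellogenin, a yolk protein made in the fat body. The royal jelly family holds the genes Mrjp1 to Mrjp9, not all of which are known for this role. The same glands of foragers make enzymes that split the sucrose of nectar. A young adult also still hardens its cuticle and fills its venom sac.

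The labelled role was checked against these markers first. Mrjp1 to Mrjp9 together took a median of 11.8% of counts in day 26 nurses (0.306% to 21.0%) and 10.2% in day 7 nurses (0.269% to 16.7%). The medians of foragers were 0.766% at day 26 (0.283% to 11.1%) and 0.686% at day 7 (0.148% to 4.41%). The ranges of the 2 roles thus overlapped, with 16 of 24 forager libraries at day 26 and 14 of 22 at day 7 under 1%. Nurses of both days thus carried the gland's transcripts, apart from 5 libraries under 1%, of which 3 were from day 26 and 2 from day 7. A further library, number 2 with the mark #2 of colony 115 nurses at day 7, stood apart from its colony in its mitochondrial transcripts. In colony 122 at day 26, the library numbered 2 with that mark and replicate 3 differed by 1.52 in chi-square per gene, against a median of 26.1 between nurse libraries of different numbers in a group. These libraries were kept, and calls of named genes that change without them are given beside their values.

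Between the days, 816 of 6236 tested genes changed in nurses (13.1%, edgeR's quasi-likelihood test with colony as covariate, Benjamini-Hochberg adjusted p under 0.05). Of these, 367 were higher at day 26 (5.89% of those tested) and 449 were lower (7.2%). With library totals as the only scaling the split was 612 higher and 253 lower. A change of over 2-fold was found for 90 called genes, 26 higher and 64 lower. The day difference had 1 sign in all 6 colonies for 68.1% of the called genes, against 14.0% of all tested genes. The median log2 fold change was 0.39 among called rises and -0.44 among called falls, and 0.0005 over all tested genes.

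Of the tested genes 227 had an identifier other than a LOC number, the mitochondrially encoded genes among them. Of these 21 rose and 48 fell (5.89% and 7.2% over all tested genes). The steepest falls among them were in cuticle and venom genes. Of 21 tested respiratory chain and ATP synthase genes of both genomes 15 fell (7.2% over all tested genes). The rises included alpha-glucosidases, the chaperone Hsc70-5, a defensin and a fatty acyl reductase. Without the 5 libraries of low royal jelly share 736 genes were called, and without the colony 115 library 822, of which 758 were also called with it. With libraries marked #2 summed with their number 616 genes were called (275 higher, 341 lower). With counts summed per colony and day (6 samples against 6) 502 genes were called.

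**Figure D1:**
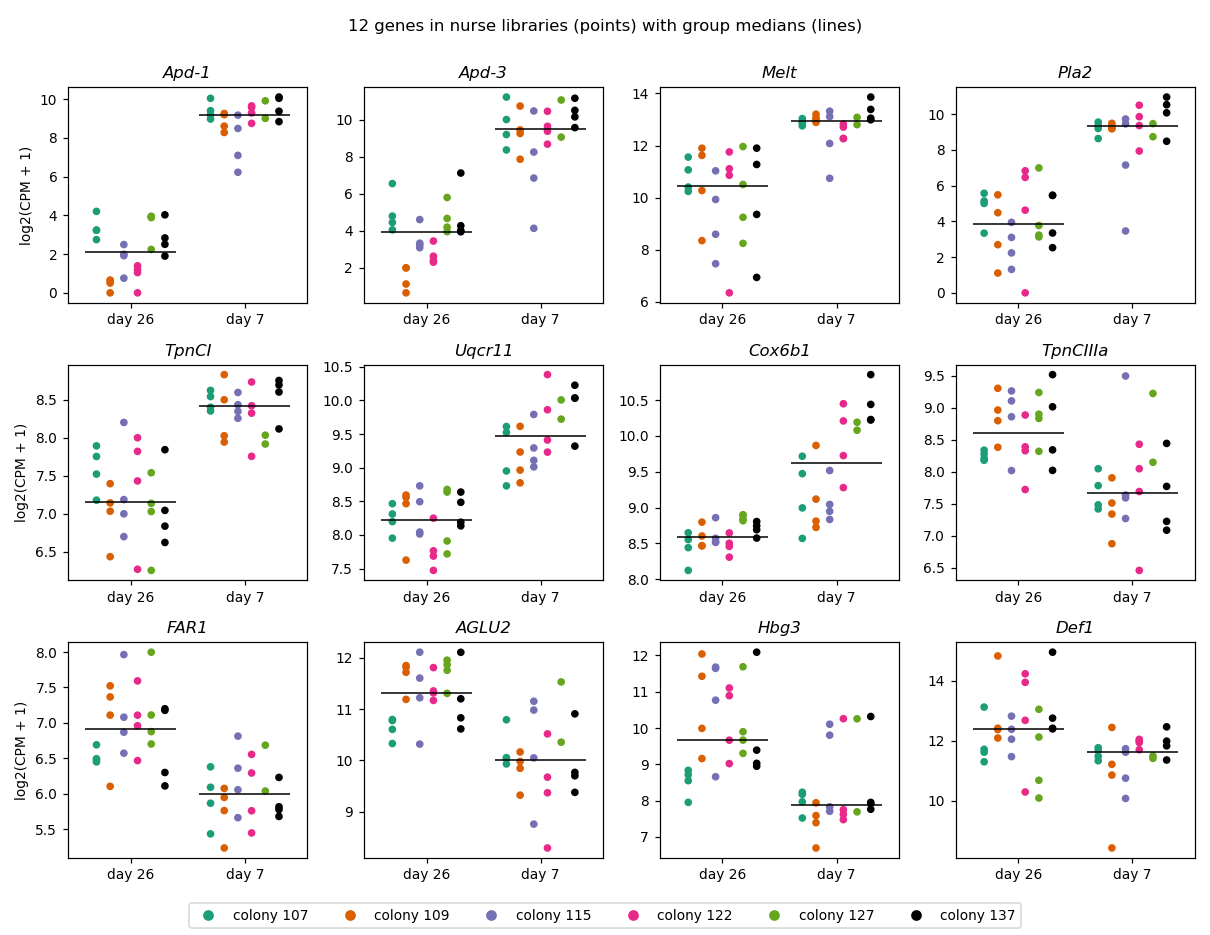
Levels of 12 genes in 24 day 26 nurse libraries (left of each panel) and 22 day 7 nurse libraries (right), as log2(CPM + 1), with points coloured by colony and lines at the group medians. The days of Apd-1 do not overlap, with 0 to 17.5 CPM at day 26 and 73.9 to 1103 CPM at day 7. Hbg3, AGLU2, FAR1, Def1 and TpnCIIIa have higher medians at day 26.

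The apidermins Apd-1, Apd-2 and Apd-3, structural proteins of the bee's cuticle, fell in day 26 nurses. CPM values are counts scaled by library totals that were adjusted with TMM factors. Apd-1 had 0 to 17.5 CPM in day 26 nurses (median 3.35) and 73.9 to 1103 CPM in day 7 nurses (median 586). Every day 26 library lay below every day 7 library, and the log2 fold change was -7.14 ± 0.33 (SE, adjusted p = 1.4e-19), lower in 6 of 6 colonies. Genes with the largest changes were named only with 1 sign in 6 colonies, so that sign count is no further support for them. Apd-3 had 0.548 to 138 CPM at day 26 (median 14.3) and 16.4 to 2393 CPM at day 7 (median 729), with a log2 fold change of -5.87 ± 0.46 (SE, adjusted p = 1.3e-12). The groups of Apd-3 overlapped, with 15 of 24 day 26 libraries below the lowest day 7 library. Apd-2 had 78.2 to 924 CPM at day 26 (median 368) and 214 to 2243 CPM at day 7 (median 1291), a log2 fold change of -1.63 ± 0.22 (SE, adjusted p = 5.7e-07).

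Of 27 cuticle genes with counts listed, 7 were tested, of which 4 fell and 1 rose (7.2% and 5.89% over all tested genes). The list median log2 fold change was -0.40 against 0.0005 over all genes. Over the 22 alternatives 3 to 8 members fell and 0 to 2 rose. The other called members carry the chitin-binding Rebers-Riddiford motif of arthropod cuticle. CPR28 fell by 0.34 on the log2 scale (SE 0.095, adjusted p = 0.0116), a call lost in 6 of 22 alternative settings. CPR14 had a log2 fold change of 0.31 ± 0.10 (SE, adjusted p = 0.042), a call lost in 12 of 22, among them the fit with all roles (adjusted p = 0.051, range over the alternatives 2.5e-04 to 0.242). In whole bees, fewer cells of a tissue and less RNA per cell cannot be told apart, which holds for each fall given here.

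Besides Apd-1, the days did not overlap for 1 other gene of the 6236 tested (2 in all, 0.0321%, both lower at day 26). LOC552699, named here after its values were seen, had 92.8 to 145 CPM in day 26 nurses (median 121) and 192 to 414 CPM in day 7 nurses (median 278). The log2 fold change was -1.21 ± 0.075 (SE, adjusted p = 1.4e-17), so a modest fold with little spread within each day.

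The 4 toxin genes among 5 venom genes fell together (7.2% lower over all tested genes), with a list median of -2.22. The fall of each held in all 22 alternative settings. Pla2 encodes the venom's phospholipase A2. It had 0 to 126 CPM at day 26 (median 13.5) and 10.0 to 1987 CPM at day 7 (median 657), a log2 fold change of -4.83 ± 0.47 (SE, adjusted p = 3.1e-10). Mcdp, the mast cell degranulating peptide, had 1.48 to 239 CPM at day 26 (median 37.5) and 36.8 to 2055 CPM at day 7 (median 758), a log2 fold change of -3.77 ± 0.45 (SE, adjusted p = 5.0e-08). Below the lowest day 7 library lay 11 of 24 day 26 libraries for Pla2 and 12 of 24 for Mcdp, and the rest overlapped.

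Melt encodes melittin, the membrane-lysing peptide of bee venom. It had 80.5 to 3986 CPM in day 26 nurses (median 1405) and 1713 to 14874 CPM in day 7 nurses (median 7855), a log2 fold change of -2.22 ± 0.33 (SE, adjusted p = 4.0e-06). In 13 of 24 day 26 libraries Melt lay below the lowest day 7 library, and it was lower in 6 of 6 colonies. Apamin, a peptide that blocks calcium-activated potassium channels, had 18.9 to 1887 CPM at day 26 (median 764) and 565 to 7746 CPM at day 7 (median 3066). The log2 fold change of Apamin was -2.01 ± 0.37 (SE, adjusted p = 1.1e-04). The acid phosphatase gene Acph-1 had a log2 fold change of 0.25 ± 0.16 (SE, adjusted p = 0.339), with medians of 26.5 CPM at day 26 and 23.4 CPM at day 7.

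Est-6, a carboxylesterase, fell by 3.91 on the log2 scale (SE 0.39, adjusted p = 3.6e-11). It had 0 to 8.87 CPM at day 26 (median 0.823) and 0 to 53.4 CPM at day 7 (median 16.8). It had no count in 8 of 24 day 26 libraries and in 1 of 22 day 7 libraries, and a count of 0 in a library of median size allows up to 2.23 CPM (3 counts, counting error only).

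**Figure D2:**
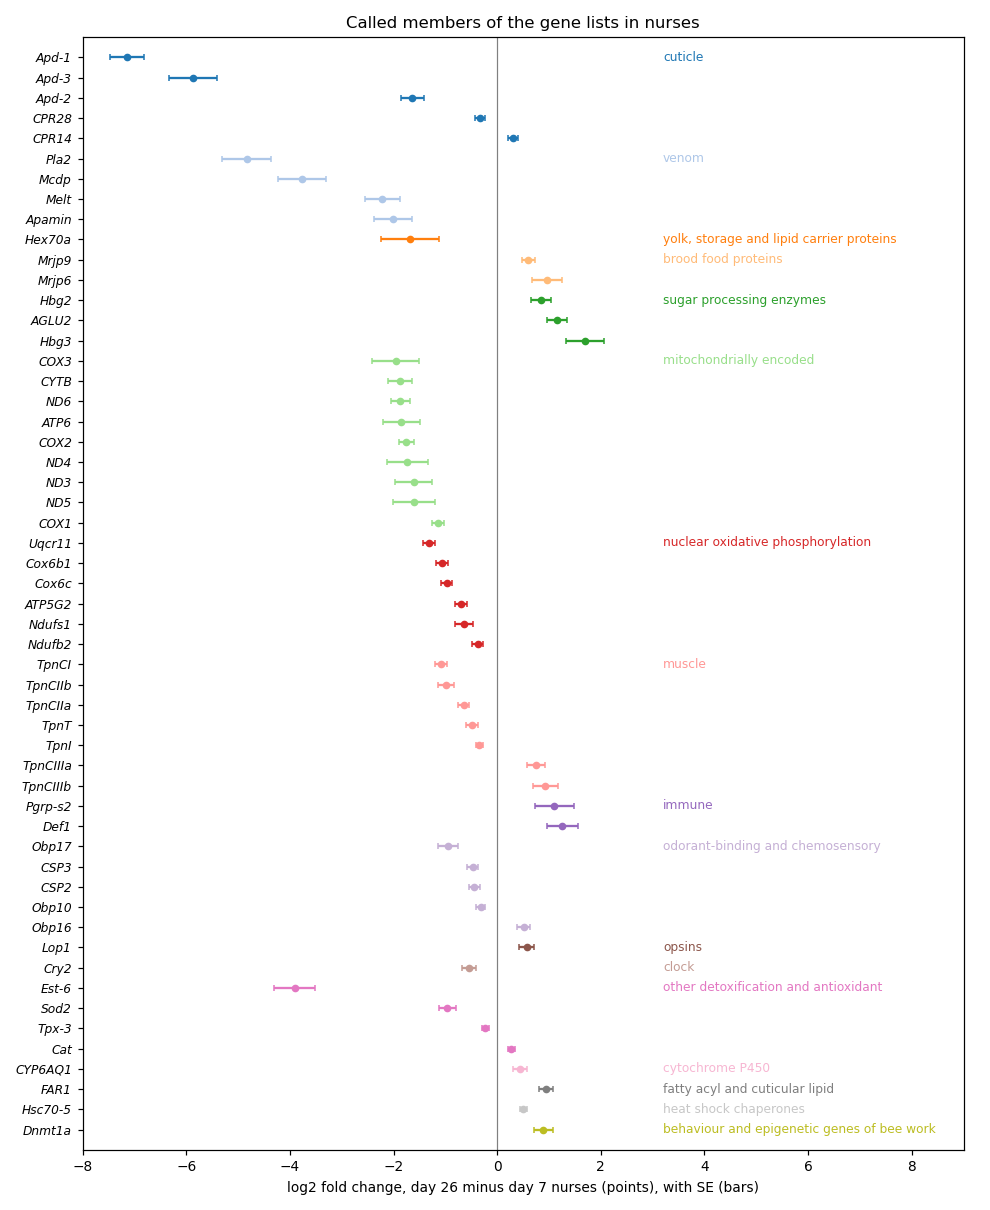
Log2 fold change of day 26 minus day 7 nurses (points) with its SE (bars) for the called members of the gene lists, grouped by list. The longest falls are those of Apd-1 (-7.14) and Apd-3 (-5.87), and the longest rise is that of Hbg3 (1.70).

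Of 9 tested genes in the brood food list 2 rose, Mrjp6 and Mrjp9, and none fell. The list median was 0.33, and over all tested genes 5.89% rose and 7.2% fell. Mrjp1, the most common protein of royal jelly, had 922 to 136338 CPM in day 26 nurses (median 69246) and 1107 to 102896 CPM in day 7 nurses (median 60469). The groups overlapped over nearly their whole range, and the log2 fold change was 0.33 ± 0.40 (SE, adjusted p = 0.661). Mrjp3 had medians of 17337 CPM at day 26 and 18026 CPM at day 7, with a log2 fold change of -0.079 ± 0.51 (SE, adjusted p = 0.946). The log2 fold changes of Mrjp4, Mrjp5 and Mrjp8 were -0.42, 0.52 and 0.34, and none passed the test. Without the 5 libraries of low royal jelly share Mrjp5 was called (0.56, adjusted p = 0.00968, range over 22 alternatives 0.00968 to 0.647), and without colony 127 Mrjp8 was (0.46, adjusted p = 0.0436, range 0.0436 to 0.38).

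Mrjp9, an early branch of the royal jelly family, rose. It had 26.2 to 246 CPM at day 26 (median 117) and 19.5 to 136 CPM at day 7 (median 75.5), a log2 fold change of 0.60 ± 0.13 (SE, adjusted p = 7.8e-04), higher in 6 of 6 colonies. Mrjp6 had 220 to 2045 CPM at day 26 (median 464) and 36.0 to 669 CPM at day 7 (median 263), a log2 fold change of 0.96 ± 0.29 (SE, adjusted p = 0.0188). Its call was lost in 8 of 22 alternative settings, among them without the 5 libraries of low royal jelly share (0.73, adjusted p = 0.0618, range over the alternatives 0.00454 to 0.291).

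All 3 sugar-processing alpha-glucosidases rose (5.89% higher over all tested genes), with a list median of 1.16. Hbg3, the secreted enzyme that splits sucrose when nectar is turned into honey, had 246 to 4361 CPM in day 26 nurses (median 811) and 102 to 1275 CPM in day 7 nurses (median 233). For Hbg3 the log2 fold change was 1.70 ± 0.37 (SE, adjusted p = 0.0011), higher in 6 of 6 colonies. The groups overlapped, with 9 of 24 day 26 libraries above the highest day 7 library, and medians of the colonies lay between 395 and 2472 CPM at day 26 and between 179 and 713 CPM at day 7. The call of Hbg3 was lost with counts summed per colony and day (adjusted p = 0.103) and without libraries numbered 3 (1.13, adjusted p = 0.143, range over 22 alternatives 4.4e-06 to 0.143). Foragers had medians of 3442 CPM at day 26 and 2411 CPM at day 7, above both nurse medians.

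AGLU2 had 1275 to 4404 CPM in day 26 nurses (median 2534) and 314 to 2949 CPM in day 7 nurses (median 1028), a log2 fold change of 1.16 ± 0.18 (SE, adjusted p = 8.5e-06). In 10 of 24 day 26 libraries it lay above every day 7 library, and the call held in all 22 alternative settings. Hbg2 had 581 to 3687 CPM at day 26 (median 1621) and 212 to 1476 CPM at day 7 (median 959), a log2 fold change of 0.85 ± 0.19 (SE, adjusted p = 0.00166). It was above the day 7 range in 15 of 24 day 26 libraries, and its call was lost without libraries numbered 2 (0.68, adjusted p = 0.111, range over the alternatives 9.9e-05 to 0.111).

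Yolk, storage and lipid carrier genes had negative fold changes in all 6 tested members, with a list median of -0.91. Of the 6, 1 passed the test, beside 7.2% lower over all tested genes. Vg, the vitellogenin gene, had 73.4 to 5344 CPM in day 26 nurses (median 682) and 108 to 7887 CPM in day 7 nurses (median 1412). The ranges covered each other almost in full, and the log2 fold change was -1.40 ± 0.54 (SE, adjusted p = 0.0774). Vg passed the threshold in 4 of 22 alternative settings (adjusted p 0.0196 to 0.506 over all). Hex70a, a hexamerin that stores amino acids, had 32.6 to 5389 CPM at day 26 (median 707) and 75.8 to 7959 CPM at day 7 (median 3364), a log2 fold change of -1.68 ± 0.56 (SE, adjusted p = 0.0404). Its call was lost in 12 of 22 alternatives, and summing the near-identical pair of colony 122 was enough to end it (adjusted p = 0.0559, range over the alternatives 0.00475 to 0.442). The hexamerin gene Hex110 had a log2 fold change of -1.88 ± 0.76 (SE, adjusted p = 0.099), which was called in 2 of 22 alternatives, and the fatty acid carrier gene Fabp one of -0.43 ± 0.19 (SE, adjusted p = 0.136).

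Respiratory chain transcripts of the mitochondrial genome took 3.12% ± 1.14 of counts in day 26 nurses and 7.11% ± 2.45 in day 7 nurses (SD, n = 24 and 22, two-sided permutation test of 100000 resamples, p = 2e-05, the smallest these resamples can give, adjusted p = 6e-05 over 3 library measures). The share was lower at day 26 in 6 of 6 colonies, by 2.09 to 5.63 percentage points. The smallest of these, in colony 115, was 0.70 percentage points without 1 day 7 library described below. Of the 13 mitochondrially encoded genes 9 fell and none rose (7.2% and 5.89% over all tested genes), with a list median of -1.61. ND1, ND2, ND4L and ATP8 did not pass the test. COX1, the core subunit of cytochrome c oxidase, had 7597 to 22373 CPM at day 26 (median 14501) and 10867 to 59282 CPM at day 7 (median 33712). COX1 thus had a log2 fold change of -1.14 ± 0.11 (SE, adjusted p = 4.8e-11). COX2, a second subunit of that enzyme, had medians of 4144 CPM at day 26 and 15664 CPM at day 7, a log2 fold change of -1.75 ± 0.14 (SE, adjusted p = 9.4e-14). The cytochrome b gene CYTB and the complex I gene ND6 fell by 1.88 and 1.87 on the log2 scale, and the falls of COX1, COX2, CYTB and ND6 held in all 22 alternative settings.

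Colony 115 differed from the other colonies in several of these genes, and there 1 library decided the size of the change. COX3, another subunit of cytochrome c oxidase, had 42.3 to 53.8 CPM in the 4 day 26 nurse libraries of colony 115. In 3 of its day 7 nurse libraries COX3 had 31.9 to 42.6 CPM, but in the library numbered 2 with the mark #2 it had 12102 CPM. In the other 5 colonies COX3 ran between 1279 and 5594 CPM at day 26 and between 3916 and 21554 CPM at day 7. Over its mitochondrial genes that library lay 7.65 log2 units from the mean of colony 115 and 1.46 from that of colony 107, and its colony label was not tested further.

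With that library the log2 fold change of COX3 was -1.96 ± 0.46 (SE, adjusted p = 0.00238), and without it -1.16 (adjusted p = 2.4e-09), within a range of 1.3e-12 to 0.2 over 21 alternatives. The calls of ND3, ND4 and ATP6 were each lost in 1 alternative and that of ND5 in 2. The call of COX3 was lost with counts summed per colony and day (adjusted p = 0.2) and without libraries numbered 3 (adjusted p = 0.0607). The complex I genes ND3, ND4 and ND5 fell by 1.61, 1.73 and 1.60 with the library and by 1.12, 1.05 and 0.93 without it, and the ATP synthase gene ATP6 by 1.85 with it and 1.24 without it. Without it 9 of 13 genes were still called lower. In the 4 day 26 nurses and the remaining 3 day 7 nurses of colony 115, the day difference in mean log2 CPM was 0.33 for COX3 and 0.012 for ND4, but -0.78 for COX1, -0.88 for COX2 and -1.02 for ND6. The mitochondrial share of colony 115 was then 1.05% to 1.64% at day 26 and 1.75% to 2.41% at day 7, which do not overlap.

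**Figure D3:**
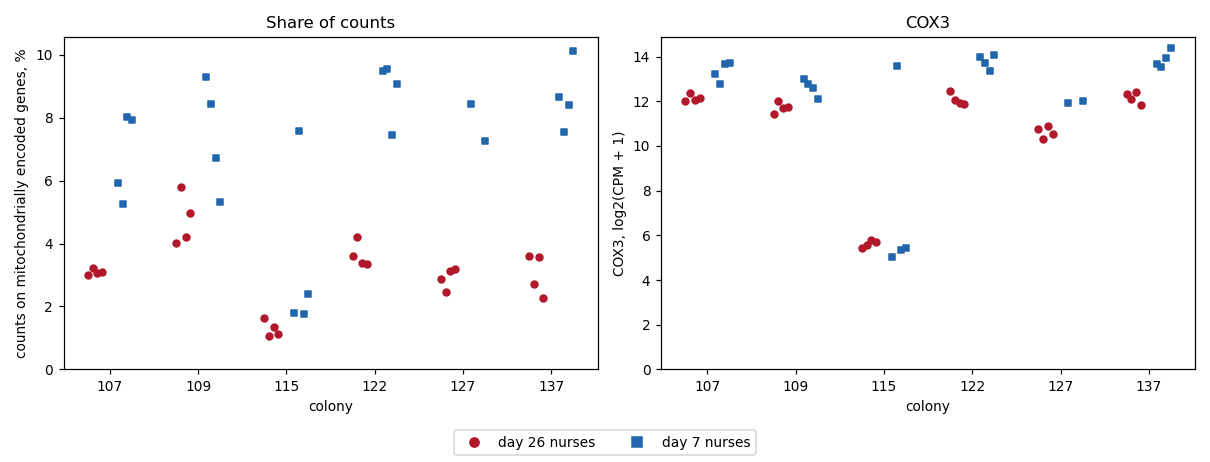
Share of counts on mitochondrially encoded genes in percent (left) and COX3 as log2(CPM + 1) (right) in each nurse library, by colony, with day 26 (circles) left of day 7 (squares). The share is lower at day 26 in each colony. In colony 115, COX3 lies at 31.9 to 53.8 CPM in every nurse library except the day 7 library at 12102 CPM.

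Nuclear genes of the respiratory chain and ATP synthase also fell in day 26 nurses. Of 8 tested 6 fell and none rose (7.2% and 5.89% over all tested genes), with a list median of -0.67. Uqcr11, a small subunit of complex III, had 177 to 424 CPM at day 26 (median 298) and 424 to 1335 CPM at day 7 (median 708). In 23 of 24 day 26 libraries it lay below every day 7 library, with a log2 fold change of -1.31 ± 0.12 (SE, adjusted p = 5.4e-12). Cox6b1, a subunit of cytochrome c oxidase, had 278 to 477 CPM at day 26 (median 384) and 379 to 1852 CPM at day 7 (median 786), a log2 fold change of -1.07 ± 0.11 (SE, adjusted p = 2.4e-10). Its day 26 libraries spanned a far narrower range than its day 7 libraries.

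Cox6c, of the same enzyme, had 1421 to 2625 CPM at day 26 (median 1880) and 1860 to 7337 CPM at day 7 (median 3379), a log2 fold change of -0.98 ± 0.11 (SE, adjusted p = 2.6e-09). ATP5G2, which encodes the ATP synthase c subunit, fell by 0.70 on the log2 scale (SE 0.12, adjusted p = 2.3e-05). The complex I genes Ndufs1 and Ndufb2 fell by 0.64 (adjusted p = 0.00848) and 0.37 (adjusted p = 0.0126), calls lost in 3 and 8 of 22 alternatives. The share of reads not aligned was 66.1% ± 2.93 in day 26 nurses and 65.0% ± 3.07 in day 7 nurses (SD, n = 24 and 22, permutation test, adjusted p = 0.358), and its part in these changes was tested as a covariate, which left 669 genes called.

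All 7 tested muscle genes changed, 5 lower and 2 higher (7.2% lower and 5.89% higher over all tested genes). All 7 encode troponin subunits, which couple calcium to contraction. TpnCI, a calcium-binding troponin C, had 75.2 to 294 CPM in day 26 nurses (median 142) and 215 to 455 CPM in day 7 nurses (median 340). In 19 of 24 day 26 libraries it lay below every day 7 library, with a log2 fold change of -1.08 ± 0.12 (SE, adjusted p = 3.4e-09). TpnCIIb fell by 0.99 on the log2 scale (SE 0.16, adjusted p = 7.8e-06), with medians of 21.8 CPM at day 26 and 40.1 CPM at day 7. TpnCIIa fell by 0.65 (SE 0.099, adjusted p = 2.2e-06), with medians of 307 CPM at day 26 and 494 CPM at day 7. TpnT and TpnI, the tropomyosin-binding and the inhibitory subunit, fell by 0.48 (adjusted p = 0.00247) and 0.34 (adjusted p = 0.00107), calls lost in 3 and 2 of 22 alternatives.

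Another class of troponin C genes went the other way. TpnCIIIa had 210 to 731 CPM in day 26 nurses (median 389) and 87.0 to 720 CPM in day 7 nurses (median 202), a log2 fold change of 0.75 ± 0.17 (SE, adjusted p = 0.00228). The highest day 7 library reached the top of the day 26 range, and the call was lost without libraries numbered 2 (0.48, adjusted p = 0.259, range over the alternatives 9.0e-05 to 0.259). TpnCIIIb had 32.0 to 88.7 CPM at day 26 (median 59.6) and 3.93 to 117 CPM at day 7 (median 19.5), a log2 fold change of 0.93 ± 0.24 (SE, adjusted p = 0.00622). It was higher in 4 of 6 colonies, and its call was lost in 7 of 22 alternatives (adjusted p 2.9e-04 to 0.362).

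Of 8 tested immune genes 2 rose and none fell, with a list median of 0.27 (5.89% higher and 7.2% lower over all genes). Def1, the antimicrobial peptide defensin-1, had 1086 to 31906 CPM in day 26 nurses (median 5371) and 341 to 5659 CPM in day 7 nurses (median 3193). Its log2 fold change was 1.26 ± 0.30 (SE, adjusted p = 0.00297), with 9 of 24 day 26 libraries above the day 7 range and colony differences between 0.034 and 2.20. The call was lost without libraries numbered 3 (0.70, adjusted p = 0.147) and without the 13 libraries whose mitochondrial profile lay nearer another colony (1.32, adjusted p = 0.0645, range over the alternatives 2.7e-04 to 0.147). Leaving out these 13 took every day 7 nurse of colony 107 out of the fit. Pgrp-s2, a short peptidoglycan recognition protein, had 251 to 19197 CPM at day 26 (median 2397) and 532 to 4209 CPM at day 7 (median 1220). Its log2 fold change was 1.10 ± 0.38 (SE, adjusted p = 0.0455), higher in 4 of 6 colonies and lost in 14 of 22 alternatives, also with the near-identical pair summed (adjusted p = 0.0641, range over the alternatives 0.00638 to 0.424). The apidaecin gene Apid1, another antimicrobial peptide, had a log2 fold change of 1.27 ± 0.49 (SE, adjusted p = 0.0801), called in 4 of 22 alternatives. The prophenoloxidase gene PPO had one of -0.42 ± 0.22 (SE, adjusted p = 0.222), and was called without the 5 libraries of low royal jelly share (-0.65, adjusted p = 0.0401, range over 22 alternatives 0.0401 to 0.746).

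Among 11 tested detoxification and antioxidant genes 3 fell and 1 rose, with a list median of -0.10 (5.89% higher and 7.2% lower over all genes), and Est-6 is 1 of the falls. Sod2, the mitochondrial superoxide dismutase, had 52.7 to 208 CPM in day 26 nurses (median 124) and 100 to 563 CPM in day 7 nurses (median 183), a log2 fold change of -0.96 ± 0.16 (SE, adjusted p = 2.0e-05). It was lower in 6 of 6 colonies, and the fall held in all 22 alternatives. Cat, the catalase gene, had 167 to 315 CPM at day 26 (median 239) and 143 to 272 CPM at day 7 (median 199), a log2 fold change of 0.27 ± 0.075 (SE, adjusted p = 0.0087), and its call was lost in 5 of 22 alternatives. The thioredoxin peroxidase gene Tpx-3 fell by 0.23 on the log2 scale (adjusted p = 0.0124), a call lost in 11 of 22. The cytosolic superoxide dismutase gene Sod1 had a log2 fold change of -0.15 ± 0.071 (SE, adjusted p = 0.163). Of 3 tested cytochrome P450 genes CYP6AQ1 rose, with a log2 fold change of 0.44 ± 0.13 (SE, adjusted p = 0.0196), and this call was lost in 4 of 22 alternatives.

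Among 19 tested odorant-binding and chemosensory protein genes 4 fell and 1 rose, with a list median of -0.21. The single rise among 19 is close to the 5.89% over all genes, and the background for falls is 7.2%. Obp17 had 60.5 to 502 CPM in day 26 nurses (median 272) and 74.6 to 974 CPM in day 7 nurses (median 529), a log2 fold change of -0.95 ± 0.19 (SE, adjusted p = 3.1e-04), lower in 6 of 6 colonies. CSP3, a small chemosensory protein, had 5593 to 11509 CPM at day 26 (median 8087) and 6472 to 19023 CPM at day 7 (median 10327). Its log2 fold change was -0.48 ± 0.11 (SE, adjusted p = 0.00126), and 2 of 22 alternatives lost the call. CSP2 and Obp10 fell by 0.44 (adjusted p = 0.00327) and 0.32 (adjusted p = 0.00579), each lost in 3 alternatives. Obp16 was the member that rose, with a log2 fold change of 0.51 ± 0.13 (SE, adjusted p = 0.00395) and medians of 163 CPM at day 26 and 109 CPM at day 7. It was higher in 5 of 6 colonies, and 2 alternatives lost the call.

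The long-wavelength opsin gene Lop1 rose, with 76.6 to 219 CPM in day 26 nurses (median 158) and 5.63 to 145 CPM in day 7 nurses (median 105). Its log2 fold change was 0.57 ± 0.15 (SE, adjusted p = 0.00767), with 14 of 24 day 26 libraries above the day 7 range, and 3 of 22 alternatives lost the call. The blue and ultraviolet opsin genes Blop and Uvop had log2 fold changes of 0.48 (adjusted p = 0.0689) and 0.30 (adjusted p = 0.0765), called in 3 and 4 of 22 alternatives. Cry2, the cryptochrome of the bee clock, fell by 0.55 on the log2 scale (SE 0.14, adjusted p = 0.00579, lost in 3 of 22 alternatives), while its partner gene Per had -0.19 ± 0.12 (SE, adjusted p = 0.315).

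FAR1, a fatty acyl-CoA reductase, had 67.8 to 255 CPM in day 26 nurses (median 120) and 36.6 to 111 CPM in day 7 nurses (median 62.7). It lay above the day 7 range in 14 of 24 day 26 libraries, with a log2 fold change of 0.94 ± 0.14 (SE, adjusted p = 1.2e-06), higher in 6 of 6 colonies and called in all 22 alternatives. Hsc70-5, in flies the mitochondrial Hsp70 chaperone, had 196 to 372 CPM at day 26 (median 281) and 155 to 296 CPM at day 7 (median 202), a log2 fold change of 0.50 ± 0.068 (SE, adjusted p = 1.8e-07). It was the only called member of 4 tested chaperones (13.1% called over all tested genes). Hsp90 had a log2 fold change of 0.27 ± 0.15 (SE, adjusted p = 0.234). Dnmt1a, a maintenance DNA methyltransferase, had 5.45 to 15.9 CPM at day 26 (median 8.59) and 1.05 to 10.4 CPM at day 7 (median 4.94). The resulting log2 fold change was 0.89 ± 0.18 (SE, adjusted p = 3.1e-04). The methyltransferase gene Dnmt3 (0.31, adjusted p = 0.173) and the foraging kinase gene For (0.22, adjusted p = 0.337) did not pass the test, though For was called in 2 of 22 alternatives.

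No call was made among 3 tested hormone and insulin genes (of 9 listed), 7 neuronal signalling genes (of 20), 3 nicotinic acetylcholine receptor subunits (of 10) and 7 cytosolic ribosomal proteins (of 7). Over all tested genes 13.1% were called, a share at which lists this short can hold no call. Some members passed in some of the 22 alternatives, Kr-h1 in 3 and Oa1, nAChRa8, nAChRa9 and Rpl39 in 2 each. The juvenile hormone response gene Kr-h1 had medians of 16.0 CPM in day 26 nurses and 6.71 CPM in day 7 nurses, a log2 fold change of 0.83 ± 0.33 (SE, adjusted p = 0.0965). The juvenile hormone esterase gene Jhe had a log2 fold change of -0.61 ± 0.29 (SE, adjusted p = 0.177), and the octopamine receptor gene Oa1 one of 0.47 ± 0.18 (SE, adjusted p = 0.0826). Nicotinic receptors are the target of imidacloprid, the insecticide in the title of the series. Of the 10 subunits listed, 3 had enough counts, with log2 fold changes of 0.24 ± 0.099 for nAChRa8 (SE, adjusted p = 0.11), 0.41 ± 0.17 for nAChRa9 (SE, adjusted p = 0.1) and 0.16 ± 0.19 for nAChRb2 (SE, adjusted p = 0.66). The ribosomal protein gene Rpl39 had -0.19 ± 0.073 (SE, adjusted p = 0.0722).

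Genes listed only by a LOC number were among the largest changes in both directions. LOC102654146 had 1.28 to 13.3 CPM in day 26 nurses (median 4.49) and 7.29 to 200 CPM in day 7 nurses (median 72.5), a log2 fold change of -3.93 ± 0.23 (SE, adjusted p = 8.7e-17). LOC724464, LOC678674, LOC406145 and LOC100576444 fell by 3.72, 3.41, 2.87 and 2.03 on the log2 scale. Each of these 5 was lower in 6 of 6 colonies, which the rule that picked them required. Only the call of LOC100576444 was lost in some alternative settings, 2 of 22. LOC727193 had 87.1 to 2442 CPM at day 26 (median 662) and 20.0 to 963 CPM at day 7 (median 83.6), a log2 fold change of 2.64 ± 0.40 (SE, adjusted p = 5.3e-06). LOC726737, LOC107963967, LOC725114 and LOC724993 had log2 fold changes of 2.57, 2.49, 2.18 and 1.69. The calls of LOC727193 and LOC107963967 held in all 22 alternatives, and those of LOC726737, LOC724993 and LOC725114 were lost in 4, 3 and 2 of them.

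**Figure D4:**
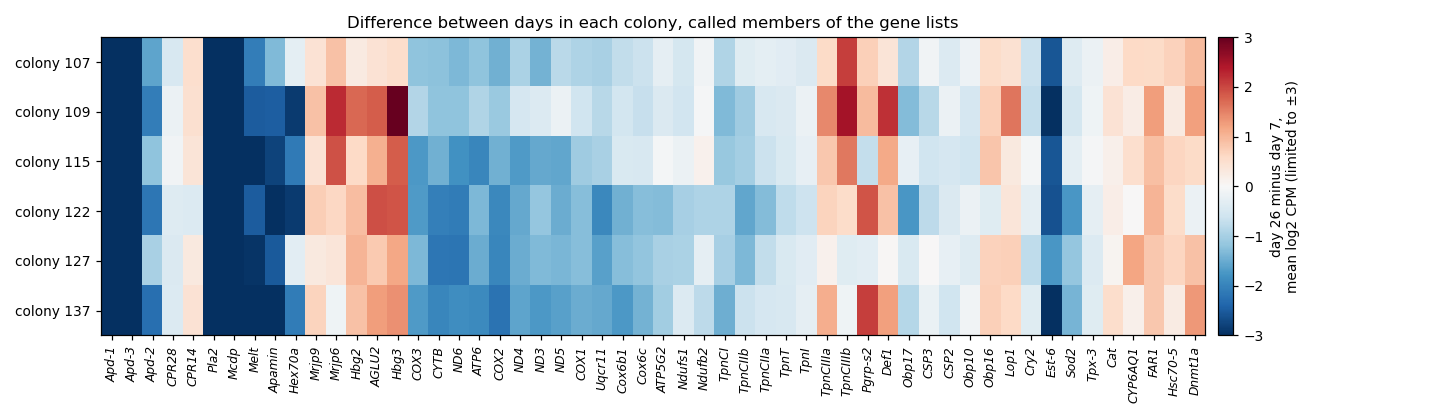
Day 26 minus day 7 difference of mean log2 CPM in nurses of each colony (rows) for the called members of the gene lists (columns), blue for lower and red for higher at day 26, with colours limited to ±3. Apd-1, Apd-3, Pla2 and Mcdp are dark blue in all 6 colonies, while TpnCIIIb and Pgrp-s2 differ in sign between colonies.

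Whether the change with day differed between the colonies was tested with a colony by day interaction in nurses. At an adjusted p under 0.05 edgeR's quasi-likelihood test called 0 of 6236 genes (0%), with 526 at an unadjusted p under 0.05 and a smallest adjusted p of 0.14. A likelihood ratio test in DESeq2 called 52 and gave no adjusted p for 4957. Without the colony 115 library of far mitochondrial profile edgeR called 3. Apd-1 and Cox6b1 were among the 5 named genes with the smallest p, both with adjusted p of 0.14 or above. The fall of Apd-1 ranged between -8.05 and -5.75 over the 6 colonies, and that of Cox6b1 between -1.73 and -0.47.

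The change with day in nurses was then set against that in foragers (24 libraries of day 26 and 22 of day 7) by an interaction of role and day over 92 libraries. The change differed for 56 of 6753 tested genes (0.829%, edgeR's quasi-likelihood test), 23 more positive in nurses (0.341%) and 33 more negative (0.489%). Of the 56, 8 had a name, and 38 had nurse and forager changes of opposite sign, which a test for differing changes favours. The change was called in both roles for 5 of the 56, in foragers alone for 26, in nurses alone for 23 and in neither for 2. The fit with nurses alone did not test 3 of the 56, which these counts take as not called in nurses and not of opposite sign. Nurse changes here and below come from the fit with nurses alone, and forager changes and differences from the fit of both roles. A difference thus need not equal the nurse change minus the forager change. This count was sensitive to the libraries used, with 11 to 19 calls when 1 replicate number was left out and 97 without the 5 nurse libraries of low royal jelly share.

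TpnCIIIa had log2 fold changes of 0.75 ± 0.17 in nurses and -0.091 ± 0.14 in foragers (SE), a difference of 0.81 ± 0.20 (SE, adjusted p = 0.0224). Its medians in foragers were 542 CPM at day 26 and 610 CPM at day 7, both above those of nurses. The call was lost in 7 of 15 alternatives, among them without colony 109 (adjusted p = 0.219, range over the alternatives 0.00116 to 0.526). CSP3 had log2 fold changes of -0.48 ± 0.11 in nurses and 0.14 ± 0.092 in foragers (SE), a difference of -0.58 ± 0.13 (SE, adjusted p = 0.0123), lost in 6 of 15 alternatives, among them without colony 109 (adjusted p = 0.0901, range over the alternatives 0.00492 to 0.16).

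The odorant-binding gene Obp7 had 0 to 13.9 CPM in day 26 nurses (median 2.45) and 0.653 to 24.1 CPM in day 7 nurses (median 12.1). Its medians in foragers were 7.13 CPM at day 26 and 5.31 CPM at day 7, and the nurse minus forager change was -2.07 ± 0.42 (SE, adjusted p = 0.0036), a call lost without libraries numbered 2 (adjusted p = 0.199, range over 15 alternatives 0.00138 to 0.199). Obp7 did not pass the count filter of the fit with nurses alone. LOC725114 had 492 to 24402 CPM in day 26 nurses (median 2004) and 281 to 4282 CPM in day 7 nurses (median 692), while foragers had medians of 1843 CPM at day 26 and 3506 CPM at day 7. The difference in change was 2.94 ± 0.47 (SE, adjusted p = 7.7e-05), a call lost without libraries numbered 2 (adjusted p = 0.0668, range over 15 alternatives 3.0e-05 to 0.0668). LOC552277 had log2 fold changes of -0.58 ± 0.17 in nurses and 0.73 ± 0.14 in foragers (SE), a difference of -1.30 ± 0.20 (SE, adjusted p = 7.55e-05) that was called in all 15 alternatives.

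The mitochondrial genes COX3, ND3 and ND4 were also called, with nurse minus forager changes of -2.31, -2.07 and -1.88, as were ATP6 (-1.79) and ND5 (-1.70). These calls were lost without the libraries of far mitochondrial profile, 1 nurse library of colony 115 and 4 forager libraries of colonies 115 and 122. Without them the values were -0.18 (adjusted p = 0.651), -0.36 (adjusted p = 0.535) and -0.21 (adjusted p = 0.606), and none of the 13 mitochondrially encoded genes was called.

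**Figure D5:**
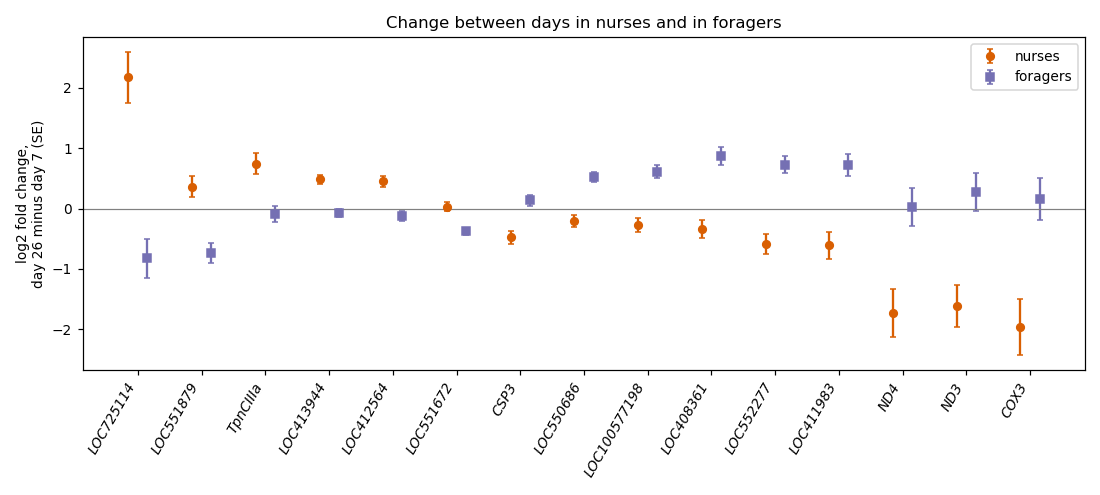
Log2 fold change of day 26 minus day 7, with SE bars, in nurses (circles) and in foragers (squares) for the named-by-rule genes of the role by day interaction that were tested in both roles. Nurse values are from the fit with nurses alone, and forager values from the fit of both roles. LOC725114 and TpnCIIIa are positive in nurses and negative in foragers. COX3, ND3 and ND4 carry long SE bars and are called only with the libraries of far mitochondrial profile.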

How the data were processed

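The authors deposited a table of raw counts (whole numbers of reads per gene, not normalized) with 9935 genes and 5 entries of reads assigned to no gene, which stayed out of library totals and tests. The tools listed in the submitters' processing notes are HISAT2, SAMtools, FastQC and DESeq2. The sources used here do not give the build, the annotation or the counting program. Of 96 labelled samples 93 have a column. The negative control and replicates 2 and 3 of colony 127 nurses at day 7 were not analysed here. No column was left unmapped. Of the gene names, 9933 were found in RefSeq's gene table.

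Genes were kept by filterByExpr at a minimum count of 10 over the day groups of nurses, scaled by TMM and fitted in edgeR 4.0.16 (R 4.3.3, quasi-likelihood, legacy=FALSE, robust=TRUE) on the 46 nurse libraries with colony as covariate (39 residual degrees of freedom). The role by day fit used 92 libraries and a mean for every combination of colony, role and day (68 residual degrees of freedom). It left out 1 forager library with 81736 counts, under 10% of the median of 1286245. P-values were adjusted by Benjamini-Hochberg across every tested gene, and called at 0.05. Fits were tested on simulated data. Day differences per colony used log2 CPM with a prior count of 2. Each SE of a log2 fold change was derived from the quasi-likelihood F and so includes spread among libraries. Limits for a count of 0 cover counting error only.

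Named genes were those called with 1 sign in 6 colonies and a mean of at least 5 CPM (10 largest rises and falls with a name, 5 each with a LOC number), up to 5 per list by p, a fixed few, and the smallest p of the interactions. Other list members are named for their place in a list. The 21 gene lists and members were chosen with earlier results of these data known. Alternatives were DESeq2 1.42.0, other scalings, no filter, added covariates, summed libraries, and libraries, colonies or replicate numbers left out. Those on libraries of far mitochondrial profile (over 4 log2 units from their colony), under 1% royal jelly counts, the near-identical pair (under 2 in chi-square per gene) and DESeq2's interaction test were chosen after seeing the data.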

Additional observations from a re-analysis of the deposited data

Results flagged for a closer look

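The change with day differed between nurses and foragers for 56 genes by the interaction of role and day (edgeR, adjusted p under 0.05). The differences below are nurse minus forager changes on the log2 scale, each past that test. The 8 with a name were 0.81 for TpnCIIIa, -2.07 for Obp7, -0.58 for CSP3, -2.31 for COX3, -2.07 for ND3, -1.88 for ND4, -1.79 for ATP6 and -1.70 for ND5. The 5 mitochondrial ones were not called without the libraries of far mitochondrial profile, where they were -0.18 for COX3, -0.36 for ND3, -0.21 for ND4, -0.19 for ATP6 and 0.19 for ND5. Among genes with a LOC number, the change was more positive in nurses for LOC725114 (2.94), LOC413944 (0.58), LOC412564 (0.57), LOC551879 (1.10) and LOC551672 (0.41). It was more negative in nurses for LOC552277 (-1.30), LOC100577198 (-0.91), LOC550686 (-0.70), LOC408361 (-1.21) and LOC411983 (-1.30). The calls of LOC413944, LOC552277, LOC100577198 and LOC550686 held in all 15 alternatives. Those of LOC551672, LOC551879 and LOC411983 were lost in 6, 4 and 2 of 15, and those of LOC725114, LOC412564 and LOC408361 in 1 each.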

How the results depend on the processing

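Of 66 called genes with values given above, 33 kept their call in every alternative that could be fitted, 33 lost it in at least 1, and none changed sign. Of 26 genes given above that were not called, 14 were called in some alternative. The count of 816 genes (367 higher, 449 lower) became 612 higher and 253 lower with library totals only. It was 502 (214 and 288) with counts summed per colony and day and 616 (275 and 341) with libraries marked #2 summed with their number. Without libraries whose mitochondrial profile lay nearer another colony it was 355 (138 and 217). That setting left colony 107 without day 7 nurses and took out most of those of colony 122. The colony profiles it used were means over both days and roles. Without 1 replicate number the count was 360 to 580 (142 to 251 and 218 to 329). The replicate block gave 807 genes (355 higher, 452 lower) for nurses and 52 for role by day. Same-numbered libraries of the 2 days correlated at 0.26, -0.036 and 0.21, and 2 of 3 numbers correlated best with their own. Whether the numbers pair the samples is not settled by these values, and the main fit treats them as unpaired.

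The role by day count of 56 (23 more positive, 33 more negative) became 12 (4 and 8) with libraries marked #2 summed, 36 (12 positive) without colony 107, 20 (4 and 16) without 109, 26 (10 and 16) without 122, 35 (12 positive) without 127, 27 (8 and 19) without 137, 97 (64 negative) without nurses of low royal jelly share, and 11 to 19 (3 to 8 and 8 to 12) without 1 replicate number. Colony by day gave 0 genes, 52 by DESeq2 and 3 without the far library.

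The change of Mrjp3 (-0.079) turned to 0.030 with library totals, 0.187 with the share not aligned, 0.029 with counts summed per colony and day, 0.068 and 0.132 without colonies 109 and 115, 0.018 without nurses of low royal jelly share, and lay between -0.312 and 0.100 without 1 replicate number. The nurse minus forager change of ND5 (-1.70) turned to 0.192 without the libraries of far mitochondrial profile. The nurse change of nAChRb2 (0.16) turned to -0.019 with the share not aligned and lay between -0.008 and 0.229 without 1 replicate number. The library total (81731 counts higher at day 26, adjusted p = 0.494) was -54446 without colony 109 and -13246 without colony 115. The share not aligned differed by 2.5631 percentage points (adjusted p = 0.0207) without profiles nearer another colony. The cause of these shifts was not tested. Depth limited low genes such as Est-6 and Obp7.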
